A study of Mus musculus with 8 samples.

Results

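The Zfp genes examined here are mouse genes whose array name is Zfp followed by a number, the names once given to zinc finger proteins in the order they were found. Of 239 such names on the array, 193 had at least 1 probe well above background on all 8 arrays and are called members below. Of the others, 18 had no probe above background on any array, and 1 further gene was left out by the rule that defined the set. The members were chosen by the scanner's flag for a signal well above background, so that they are above background is no result. The members are 193 of the 15443 genes with such a probe and of the 17593 genes tested.

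All samples came from testes of male mice of a C57BL/6 129SV mixed background at postnatal day 14, whose germ cells carried Dazl fused to the tags GFP and V5. Dazl binds RNA and is needed for germ cell development. The labels do not name the promoter that drives the fusion. RNA was precipitated from lysates without crosslinking, and the 8 one-colour arrays form 4 groups of 2. They hold the input (total RNA), a mock precipitate made with mouse IgG, and precipitates made with an anti-V5 or an anti-GFP antibody. All 4 groups carry the fusion, so none is a control without it. The labels do not say that replicates came from separate animals, so p-values measure only the spread between these arrays, which may be technical.

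The labels conflict in places. The series text speaks of anti-PABP1 in place of anti-GFP, and for input replicate 2 and V5 replicate 1 the description field contradicts the title. The titles were used. By the slide numbers in the headers, input and mock were hybridised on the same slide, and both tag precipitates on a different one. The slide therefore cannot be told apart from the antibody in V5 or GFP against IgG, whereas the pairs IgG and input, and V5 and GFP, each share a slide. On each array 57.2% to 62.2% of 43379 non-control spots lay well above background and 0 were saturated. Replicate arrays correlated across members, which are not independent replicates, at Pearson r between 0.994 and 0.998. The median absolute log2 difference between the 2 arrays of a group over the members was 0.071 in the input, 0.13 in the mock, 0.085 with V5 and 0.065 with GFP, so the IgG arrays differed from each other most.

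The label calls the cells germ cells, but the input also held RNA of other testis cells. All measured markers of Sertoli (17), Leydig (8) and myoid cells (8), leukocytes (10) and endothelial cells (7) were above background on both input arrays, as were 16 of 17 germ cell markers. In such bulk RNA fewer cells of a type and less RNA per cell cannot be told apart.

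Zinc fingers are small protein folds held by a zinc ion. In the classical kind, arrays of fingers read DNA sequence, and most such genes encode transcription factors. In mammals many carry a KRAB domain, which recruits the corepressor Trim28 and with it histone methyltransferases, heterochromatin proteins and DNA methylation, mainly at transposable elements. Other fingers bind RNA or form the catalytic part of ubiquitin ligases. The name Zfp says little about function. By accession, or otherwise by array name, 186 members were matched to a RefSeq symbol of assembly GRCm38.p6. A match by name cannot show a new name. Of the 186, 25 now carry another name, among them 3 ubiquitin ligases of the Rnf family, 4 Zbtb repressors, 6 Zkscan and 3 Zscan genes.

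Levels are given as scaled signal, the deposited signal divided by its array's 75th percentile and multiplied by 1000. Fold changes are differences of log2 scaled signal with the standard error (SE) of the fit, and a gene is called at an adjusted p under 0.05 over all 17593 genes. Levels of different genes come from different probes and are not compared.

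The first comparison asks which Zfp transcripts came down with tagged Dazl beyond the mock. With the V5 antibody 40 of 193 members (20.7%) were higher than in the IgG mock and 46 (23.8%) were lower. Of all genes tested 16.7% were called higher and 40.3% lower, and of the genes above background on all 8 arrays 18.2% and 40.2%. With the GFP antibody 51 members (26.4%) were higher and 77 (39.9%) lower, against 21.6% and 52.1% of all genes, or 23.5% and 52.2% of those above background on all 8 arrays. The share of members called lower was thus below that of all genes, and the share called higher was somewhat above it. Most differences were small. With V5 2 members (1.04%) were at least 2-fold higher and 2 (1.04%) at least 2-fold lower, against 2.44% and 1.66% of the genes above background on all 8 arrays. With GFP they were 9 (4.66%) and 4 (2.07%), against 7.14% and 3.1%. At 2-fold the members' shares thus lay below those of all such genes in both directions.

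The median member stood at a log2 fold change of -0.02 with V5 and -0.10 with GFP, where the median of all genes stood at -0.21 and -0.32. For the genes above background on all 8 arrays, the filter that members had to pass, the median lay nearer, at -0.19 and -0.29. Relative to all genes tested the members' median was 0.18 higher with V5 (SD 0.044 over the 4 array pairs, which share arrays) and 0.22 higher with GFP (SD 0.069). With another background correction (normexp) these differences were 0.11 and 0.12, and with no filter on dim probes that of GFP was 0.13. The plot of cumulative distributions sets the members against the genes above background on all 8 arrays. In both comparisons the members' curve lies to the right over most of its lower range, and the curves meet among the highest fold changes. The V5 and GFP comparisons share the IgG arrays.

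**Figure D1:**
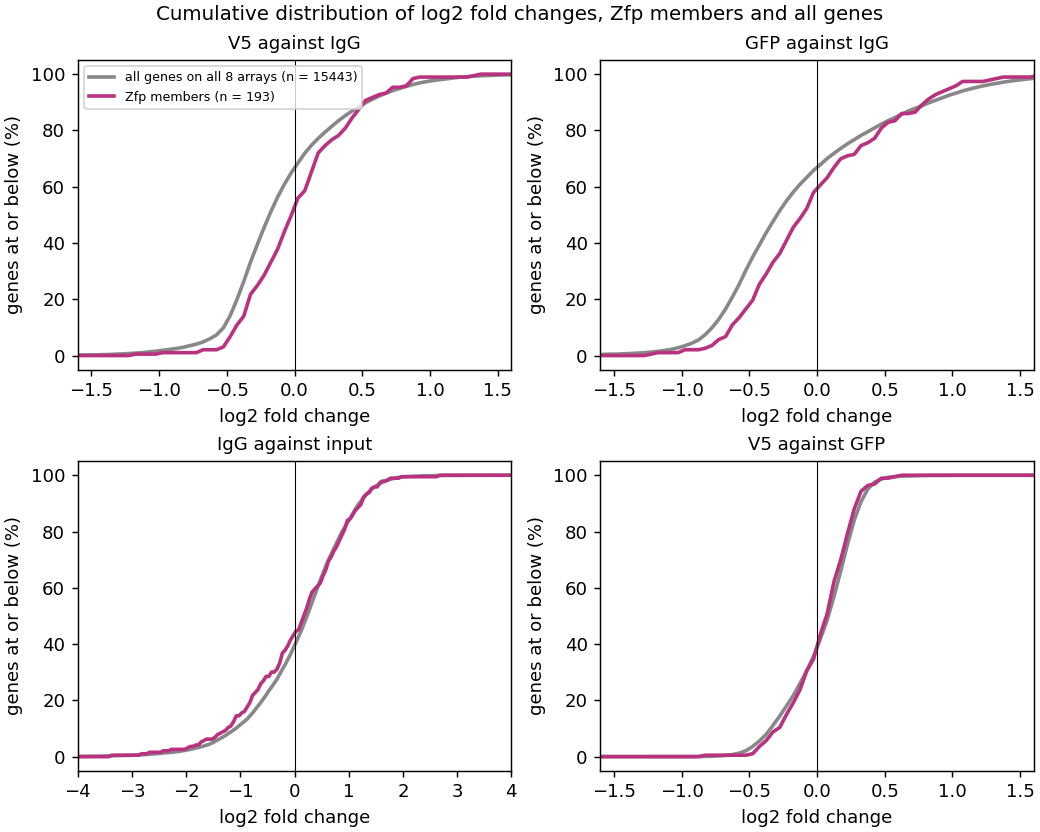
Cumulative share of genes (vertical axis, percent) at or below each log2 fold change (horizontal axis) in the 4 comparisons, for the 193 Zfp members (magenta) and all 15443 genes above background on all 8 arrays (grey). In V5 and GFP against IgG the members lie to the right of all genes below a log2 fold change of about 0, and in the other comparisons the curves lie close together.

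How many members count as higher or lower depended on the scaling between arrays. Scaled to the median of all spots, 84 members (43.5%) were higher and 3 (1.55%) lower with V5, against 27.6% and 8.91% of all genes. With GFP they were 82 (42.5%) and 30 (15.5%), against 30.8% and 27.8%. Scaled to spike-in RNA, 108 members (56%) were higher and 1 lower with V5, against 35.7% and 5.16% of all genes, and 105 (54.4%) and 8 (4.15%) with GFP, against 39% and 12.5%. The median of all genes moved to 0.16 and 0.15. Counts with these scalings for the gene lists and neighbours below were chosen after the data were seen. The gap between the shares of members and of all genes called thus changed with the scaling. Only the difference between their medians stayed. These scalings shift all genes of an array alike, so they cannot test that difference. With normexp limma called 0 genes, and so 0 members, in V5 against IgG, where 42 members had an unadjusted p under 0.05. It called 17 members higher (8.81%) and 16 lower (8.29%) with GFP, against 8.54% and 9.78% of all genes. Without V5 replicate 1, and likewise without both arrays whose descriptions conflict with their titles, 1 V5 array was left. Calls with V5 then fell for all genes as well as for members. In both cases the members' median stood at -0.012 and that of all genes at -0.20.

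Of the members, 3 are ubiquitin ligases of the Rnf family. Zfp364, now Rnf115, a RING finger ubiquitin ligase, had a scaled signal of 4349 and 4515 in input, 2968 and 2473 in IgG, 6987 and 6728 in V5 and 9848 and 9501 in GFP. Both precipitates lay above the mock and above the input on every array. It was 2.53-fold higher with V5 than with IgG (log2 1.34, SE 0.097, adjusted p = 0.000794) and 3.57-fold higher with GFP (log2 1.84, SE 0.097, adjusted p = 8.26e-05). Zfp313, now Rnf114, of the same enzyme class, was at 38896 and 39712 in input, 67632 and 71155 in IgG, 106460 and 101040 in V5 and 141760 and 133560 in GFP. The groups stood in that order without overlap, although with spike-in scaling the mock did not pass the test against input (log2 0.029, adjusted p = 0.743), with log2 fold changes over IgG of 0.58 (SE 0.070) for V5 and 0.99 for GFP. Zfp179, now Rnf112, went the other way, at 93.1 and 113 in IgG, 73.2 and 74.9 in V5 and 65.2 and 64.9 in GFP (log2 -0.47 and -0.66, adjusted p = 0.00939 and 0.0013). All 3 thus differed from the mock in both precipitates, 2 of them upward. With spike-in scaling the 2 higher ones stayed called and Zfp179 did not.

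Among members of the Zbtb family, repressors that pair zinc fingers with a BTB dimerisation domain, 2 of 4 were higher and 2 lower in both precipitates. Zfp161, now Zbtb14, had 412 and 436 in input, 500 and 493 in IgG, 955 and 899 in V5 and 1215 and 1179 in GFP. Its values in the precipitates exceeded every input and mock value, by a log2 of 0.90 with V5 (SE 0.068, adjusted p = 0.000834) and 1.27 with GFP (adjusted p = 8.59e-05) over IgG, and both of its probes moved the same way. Zfp238, now Zbtb18, a repressor known from neuronal differentiation, was higher by 0.48 and 0.43. Zfp499 (Zbtb45) had log2 fold changes of -0.40 and -0.39, and Zfp509 (Zbtb49) of -0.42 and -0.61. With spike-in scaling neither was called, and Zfp499 turned to 0.078 with GFP. Zfp278, now Patz1, a BTB protein with an AT-hook, was at 733 and 801 in IgG, 977 and 1046 in V5 and 1414 and 1379 in GFP (log2 0.40 and 0.87).

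Zfp207 encodes a microtubule-binding protein of the mitotic spindle that binds the checkpoint protein Bub3. It had 11792 and 12615 in input, 4607 and 4231 in IgG, 8418 and 7327 in V5 and 11664 and 9986 in GFP. The mock was the lowest group and the precipitates lay between mock and input on all arrays. The fold change over IgG was 1.78 with V5 (log2 0.83, SE 0.11, adjusted p = 0.00287) and 2.44 with GFP (log2 1.29, adjusted p = 0.000245).

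Zfp281, a DNA-binding factor of pluripotent cells, showed a related order, with 2680 and 2636 in input, 630 and 460 in IgG, 1035 and 941 in V5 and 1164 and 958 in GFP. It was higher than the mock by a log2 of 0.87 with V5 (SE 0.16, adjusted p = 0.00698) and 0.97 with GFP (adjusted p = 0.00208), yet no precipitate array came near the input. Zfp191, now Zfp24, a SCAN domain factor needed for myelination, was likewise highest in input (655 and 613), lowest in IgG (274 and 254) and intermediate in V5 (354 and 428) and GFP (524 and 544), with log2 fold changes over IgG of 0.56 and 1.02.

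Zfp410, a transcription factor known as an activator of the chromatin remodeller gene Chd4, had 2777 and 2711 in input, 3652 and 3706 in IgG, 5023 and 5515 in V5 and 6854 and 6718 in GFP. The groups did not overlap in that order, although IgG lay below input with spike-in scaling, and the log2 fold change over IgG was 0.52 with V5 (SE 0.070, adjusted p = 0.00302) and 0.88 with GFP (adjusted p = 0.000202). Chd4 itself went the other way, at 15299 and 18224 in IgG, 8854 and 11069 in V5 and 8755 and 9106 in GFP (log2 -0.75 and -0.90). Zfp185, a LIM domain protein of the actin cytoskeleton, was at 435 and 389 in IgG, 697 and 647 in V5 and 886 and 836 in GFP (log2 0.71 and 1.06).

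The other members with the highest fold changes were less precise or are named only. Zfp597 was at 48.2 and 55.6 in IgG, 84.6 and 106 in V5 and 131 and 131 in GFP (log2 0.87 and 1.34). Zfp383 had log2 fold changes of 0.84 and 1.05. Zfp367 had 0.86 and 1.06, but 1 of its 3 probes had the opposite sign with GFP (-0.20). Zfp518 and Zfp715 rest on IgG arrays that differ from each other. Zfp518 was at 206 and 89.7 in IgG, 376 and 305 in V5 and 447 and 375 in GFP, which gave 1.32 and 1.59 with an SE of 0.36. Zfp715 was at 180 and 103 in IgG, 246 and 229 in V5 and 245 and 230 in GFP (0.80 and 0.80, SE 0.24). Without V5 replicate 1 or without V5 replicate 2 neither passed with V5, at adjusted p = 0.0979 and 0.0551 for Zfp518 and 0.11 and 0.0794 for Zfp715.

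**Figure D2:**
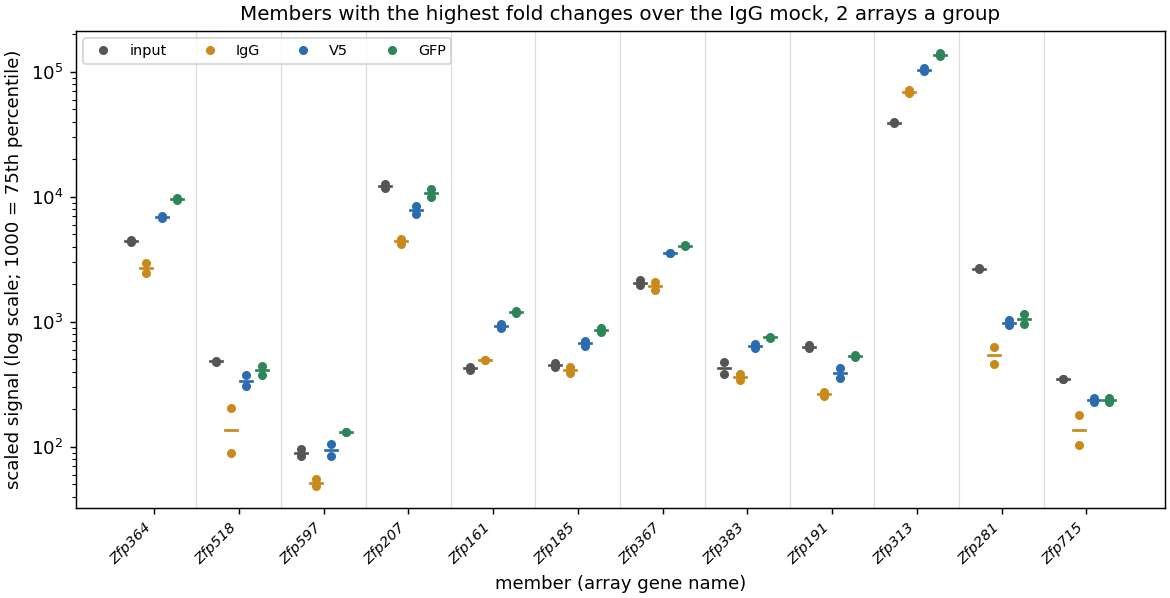
Scaled signal on a log axis (1000 is the array's 75th percentile) of the 12 members with the highest fold changes over the IgG mock in V5 or GFP, each point an array and each bar the mean of the log values of 2 arrays in input, IgG, V5 and GFP. In every member shown the V5 and GFP arrays lie above both IgG arrays, and for Zfp207, Zfp518, Zfp191, Zfp281 and Zfp715 they lie below both input arrays.

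On the lower side, Zfp206, now Zscan10, a transcription factor of embryonic stem cells, had 242 and 271 in input, 275 and 321 in IgG, 149 and 147 in V5 and 138 and 115 in GFP. Both precipitates lay below every input and mock value. It was 2.01-fold lower with V5 (SE 0.12 on the log2 scale, adjusted p = 0.00221) and 2.35-fold lower with GFP (log2 -1.23, adjusted p = 0.000347). It stayed called lower with V5 when the arrays were scaled to spike-in RNA, the only 1 of the 10 lowest to do so.

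Zfp618 was dim, at 93.6 and 63.8 in input, 63.2 and 106 in IgG, 34.2 and 38.3 in V5 and 37.5 and 34.4 in GFP. Its log2 fold changes of -1.18 and -1.19 carry an SE of 0.27, and without V5 replicate 1 the V5 value had an adjusted p = 0.0632. Zfp423, a cofactor in bone morphogenetic protein signalling, was at 125 and 142 in IgG, 87.4 and 93.7 in V5 and 61.5 and 70.4 in GFP (log2 -0.56 and -1.02). With V5 it was not called without IgG replicate 2 (adjusted p = 0.076) or without V5 replicate 1 (adjusted p = 0.0776).

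The probe named Zfp469 matches an accession now assigned to Tnrc18. It had 710 and 598 in input, 3913 and 4341 in IgG, 2166 and 2880 in V5 and 1875 and 2201 in GFP. The precipitates lay below the mock (log2 -0.72 with V5 and -1.02 with GFP) but several-fold above the input. The V5 call ended without IgG replicate 2 (adjusted p = 0.0596) or V5 replicate 1 (adjusted p = 0.0553).

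Several of the lowest members shared the order input below precipitates below mock. Zfp282 had 804 and 862 in input, 1822 and 2091 in IgG, 1388 and 1384 in V5 and 1139 and 1072 in GFP (log2 over IgG -0.49 and -0.82). Zfp651 had 439 and 446, 1188 and 1376, 842 and 957, and 738 and 763 in the same order of groups (log2 -0.51 and -0.77). Zfp707 had 3334 and 3585, 8411 and 10055, 6859 and 6649, and 5558 and 5512 (log2 -0.45 and -0.73). In each the GFP arrays lay below the V5 arrays and all precipitates above the input. Zfp704 (-0.52 and -0.62) and Zfp385, now Zfp385a (-0.50 and -0.48), had the same order relative to input.

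In other members the GFP arrays lay below the input as well. Zfp444 was at 7218 and 7191 in input, 11218 and 10948 in IgG, 7692 and 7777 in V5 and 6748 and 6611 in GFP (log2 -0.52 and -0.73, SE 0.059). Zfp358 was at 490 and 462, 709 and 868, 509 and 568, and 440 and 443 in the same order (log2 -0.55 and -0.83), and with V5 it missed the threshold without V5 replicate 1 (adjusted p = 0.0508). Zfp711, an X-linked factor that binds promoters with CpG islands, was at 230 and 210 in input, 114 and 84.2 in IgG, 81.6 and 89.5 in V5 and 54.3 and 58.8 in GFP. It was lower with GFP (log2 -0.79, adjusted p = 0.00303), and with V5 its arrays overlapped those of the mock (log2 -0.20, adjusted p = 0.286). Zfp114 was dim in every group, between 35.2 and 65.7, and its V5 value (log2 -0.70, adjusted p = 0.02) was not called without IgG replicate 2, V5 replicate 1 or V5 replicate 2 (adjusted p between 0.0652 and 0.0857).

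**Figure D3:**
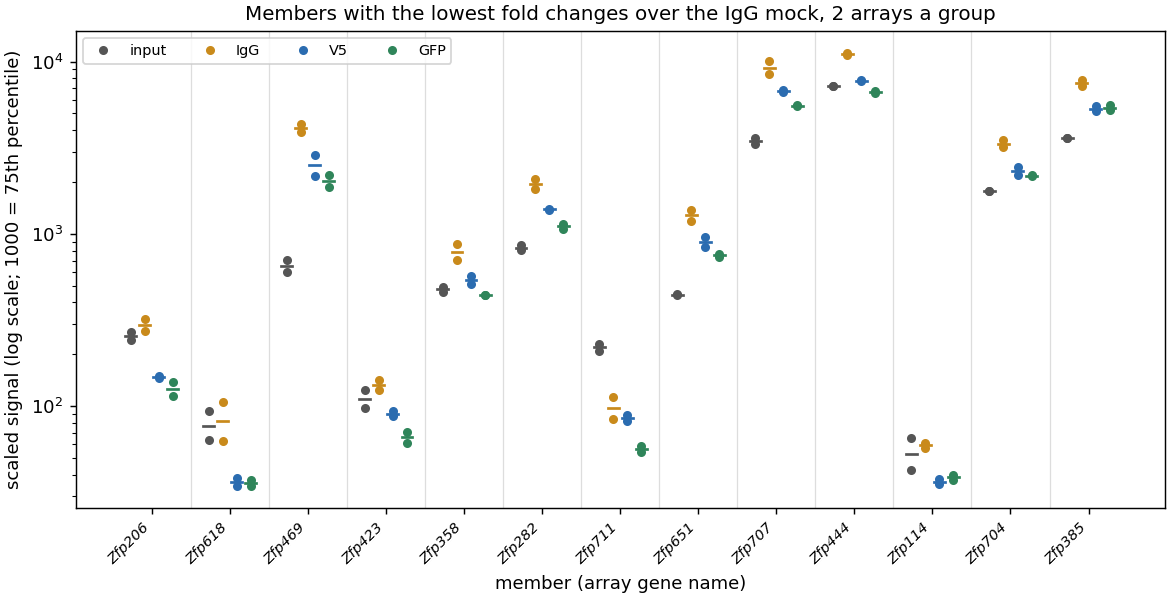
Scaled signal on a log axis (1000 is the array's 75th percentile) of the 13 members with the lowest fold changes over the IgG mock in V5 or GFP, each point an array and each bar the mean of the log values of 2 arrays. The GFP arrays lie below both IgG arrays in every member shown, and for Zfp469, Zfp651, Zfp707, Zfp282, Zfp704 and Zfp385 all precipitate arrays lie above both input arrays.

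The 10 highest members of each comparison with the mock stayed called under median scaling, spike-in scaling and quantile normalisation. Of the 10 lowest with V5, 3 stayed called under median scaling (Zfp618, Zfp206 and Zfp444) and 1 under spike-in scaling. Of the 10 lowest with GFP, 10 and 7 did. Under normexp 0 of these members stayed called with V5, and 7 of the highest and 4 of the lowest with GFP. A call for a low member therefore states that it lay below the mock relative to its array's 75th percentile.

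Most markers of cells other than germ cells were lower than in the mock. Of all genes 40.3% were lower with V5 and 52.1% with GFP, and 16.7% and 21.6% were higher. Of the Sertoli markers 15 of 17 were lower with V5 and 16 of 17 with GFP, and their summed scaled signal was 460960 to 461120 in IgG, 350150 to 359400 in V5 and 292790 to 309290 in GFP. Of the myoid markers 8 of 8 were lower with each antibody, with sums of 105850 to 120340 in IgG, 82180 to 83528 in V5 and 70051 to 70447 in GFP. Leydig markers were lower in 7 of 8 with each antibody (sums 28518 to 30732, 21346 to 22250 and 18457 to 21549), leukocyte markers in 7 and 9 of 10 (21656 to 25002, 17407 to 18892 and 13909 to 14901) and endothelial markers in 6 and 7 of 7 (2004 to 2177, 1475 to 1548 and 1352 to 1362). Germ cell markers were higher in 9 and lower in 3 of 17 with V5, and higher in 12 and lower in 4 with GFP. Their sums were 275310 to 314810 in IgG, 280820 to 292130 in V5 and 286090 to 297860 in GFP. The germ cell list as drawn up included Dazl, whose protein was precipitated, and was not screened for transcripts that Dazl binds. With spike-in scaling 1 Sertoli marker was called lower with V5 and 5 with GFP, and 0 and 5 myoid markers. Of the germ cell markers 14 and 13 were then called higher. The shares of all genes were then 5.16% and 12.5% lower, and 35.7% and 39% higher. Each sum adds signals of different probes, so the brightest weigh most, and it does not give an amount of RNA of that cell type. No marker list is at 0 in any group. The part of these cell types in the members' values was not tested.

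The second comparison asks what the mock precipitate itself held, since any difference from the mock also carries what the mock took up. In IgG 89 of 193 members (46.1%) were higher than in input and 66 (34.2%) lower, against 43.9% and 29.3% of all genes tested, or 47.2% and 29.7% of those above background on all 8 arrays. At least 2-fold higher were 30 members (15.5%) and at least 2-fold lower 28 (14.5%), against 16.1% and 11.4% of the genes above background on all 8 arrays. The members' median log2 fold change was 0.17 where that of all genes was 0.22, a difference of -0.04 that is smaller than its SD of 0.070 over the 4 array pairs. With spike-in scaling 30 members (15.5%) were higher and 128 (66.3%) lower, against 13.7% and 62.2% of all genes, and the median of all genes moved from 0.22 to -0.57. Members with positive values of up to 0.79 (Zfp553) turned sign on that scale. Among them were Zfp36 (-0.14), Zfp91 (-0.53), Zfp161 (-0.56), Zfp238 (-0.18), Zfp278 (-0.21), Zfp346 (-0.069), Zfp384 (-0.30) and Zfp410 (-0.37). For members that turned, the order of mock and input depends on the scale.

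The spread among members was far wider than in the comparisons with the mock. Zfp469 (Tnrc18) was 6.32-fold higher in IgG than in input (log2 2.66, SE 0.16, adjusted p = 2.21e-05). Zfp609, which works with the cohesin loader and the Integrator complex, had 1217 and 1158 in input, 4409 and 4667 in IgG, 4239 and 4353 in V5 and 4226 and 4626 in GFP. It was 3.82-fold higher in the mock (log2 1.93, SE 0.076), and the V5 and GFP precipitates did not pass the test against the mock (log2 -0.08 and -0.04). Zfp523 was at 13299 and 13721 in input, 41416 and 45534 in IgG, 39177 and 39014 in V5 and 42955 and 40605 in GFP (log2 1.68 for IgG against input). Its 6 precipitate values, mock included, were within a narrow range and well above the input. Zfp608 (log2 1.73) and Zfp579 (log2 1.58) were also among the highest.

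At the other end, Zfp62 fell from 1904 and 1784 in input to 233 and 135 in IgG, and was at 233 and 219 in V5 and 194 and 164 in GFP. It was 10.4-fold lower in the mock (log2 -3.38, SE 0.24, adjusted p = 3.41e-05), and neither tag antibody passed the test against the mock (log2 0.35 and 0.01). Zfp68 had 4710 and 5168 in input, 721 and 664 in IgG, 751 and 771 in V5 and 547 and 507 in GFP (7.13-fold lower in IgG). Zfp292 had 407 and 367, 74.5 and 48.8, 61.5 and 65.8, and 63.3 and 54.6 in the same order (6.41-fold lower). Zfp277, known for work with Polycomb proteins, had 1930 and 1926, 354 and 362, 393 and 377, and 384 and 376 (5.39-fold lower). All 3 precipitates of these transcripts, mock and tagged alike, lay several-fold below the input. Zfp281, described above, was 4.94-fold lower in the mock.

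**Figure D4:**
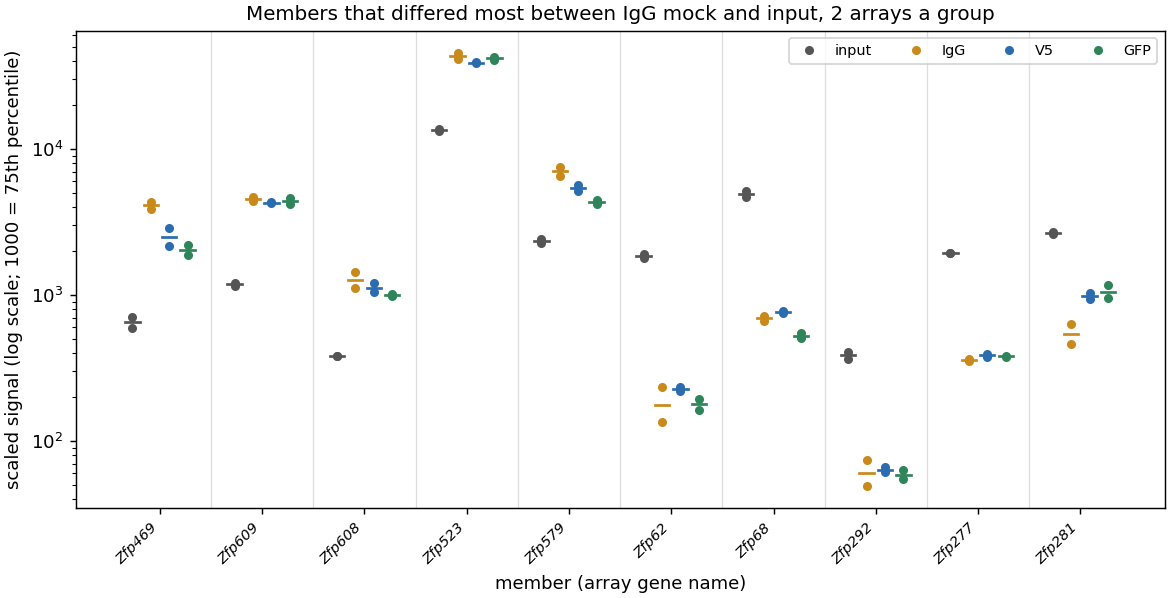
Scaled signal on a log axis (1000 is the array's 75th percentile) of the 5 members highest and the 5 lowest in the IgG mock relative to input, each point an array and each bar the mean of the log values of 2 arrays. The V5 and GFP arrays lie on the same side of the input as the mock in every member shown.

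Members called lower in V5 than in the mock were mostly ones that the mock held above input, 40 of 46, with 2 of the 46 lower in the mock than in input. Of the 40 called higher in V5, 12 were higher in the mock than in input and 18 lower. Both comparisons use the same IgG arrays, so high values there raise one and lower the other, and these counts are no independent result.

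The third comparison sets the tags against each other within 1 slide. Few members differed, 8 higher in V5 (4.15%) and 12 higher in GFP (6.22%), against 6.76% and 7.18% of all genes, or 6.79% and 7.91% of those above background on all 8 arrays, and none by 2-fold. The members' median was 0.07 and that of all genes 0.09. Higher in V5 were Zfp711 (log2 0.60, SE 0.15, adjusted p = 0.0464), Zfp68 (0.53, SE 0.083, adjusted p = 0.0289), Zfp30 (0.46), Zfp112 (0.44) and Zfp324 (0.37). Lower in V5 were Zfp364 (Rnf115, log2 -0.50, adjusted p = 0.0333), Zfp278 (Patz1, -0.47), Zfp207 (-0.46), Zfp191 (Zfp24, -0.46) and Zfp313 (Rnf114, -0.41, adjusted p = 0.0289). These 5 lower ones were also higher than the mock with both antibodies. That their GFP arrays lie above their V5 arrays follows from how they were chosen. The calls are fragile, for all genes as well as for members. With any 1 V5 or GFP array left out limma called 0 members, and 36 to 51 had an unadjusted p under 0.05, where all arrays gave 71. With only the 4 V5 and GFP arrays, or with no filter on dim probes, limma called 0 as well (78 and 62 at an unadjusted p under 0.05). Of all genes it then called 2 of 17593 and 4 of 27962. With only genes above background on all 8 arrays 24 (12.4%) were higher in V5, against 13.6% of those genes. With spike-in scaling 1 (0.518%) was higher and 22 (11.4%) lower, against 1.31% and 10.9% of all genes. With the replicate block 1 and 1 were (0.518% each), against 1.1% and 2.6% of all genes. The members' median relative to all genes was -0.02, and 0.096 with no filter, where the median of all genes moved to -0.027 and that of the members stayed.

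Members with well-known roles were described whatever their values. Zfp36, or tristetraprolin, which binds AU-rich elements and drives decay of messenger RNA, was at 624 and 638 in input, 918 and 1070 in IgG, 1001 and 883 in V5 and 1092 and 1020 in GFP. It was higher in the mock than in input (log2 0.65, adjusted p = 0.00118, but -0.14 with spike-in scaling) and did not pass the test in either precipitate against the mock (-0.08 and 0.09), with overlapping arrays. Zfp598, the ubiquitin ligase that marks collided ribosomes, was at 6304 and 6583 in input, 13319 and 14327 in IgG, 11565 and 11315 in V5 and 11583 and 11703 in GFP. It was 2.14-fold higher in the mock than in input and slightly lower in the precipitates than in the mock (log2 -0.27 and -0.25, adjusted p = 0.016 and 0.0154), a sign that turned to 0.094 and 0.23 with spike-in scaling. These calls ended without either V5 replicate (adjusted p = 0.0594 and 0.0731) and without either GFP replicate (adjusted p = 0.0737 and 0.0617). Zfp622, a factor of ribosome assembly, had log2 fold changes over IgG of -0.24 with V5 (adjusted p = 0.0531) and -0.47 with GFP (adjusted p = 0.00334), and 0.12 and 0.0075 with spike-in scaling.

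Of the RNA-binding members, Zfp346, which binds double-stranded RNA, did not pass the test against the mock (-0.12 and -0.10) and was higher in the mock than in input (log2 0.72, but -0.069 with spike-in scaling). Zfp106, an RNA-binding protein of motor neurons, was at 1117 and 1130 in IgG, 1392 and 1339 in V5 and 1576 and 1618 in GFP (0.28 and 0.51, adjusted p = 0.0139 and 0.000833), with 1 of 4 probes of opposite sign. The mean of its probes gave 0.067 and 0.17 and was called with neither, and the V5 call also ended without V5 replicate 1 (adjusted p = 0.0739). Zfp91, a ubiquitin ligase, was higher with both antibodies by 0.27 and 0.62, and its 3 probes shared that sign. The V5 call ended without V5 replicate 1 or 2 (adjusted p = 0.0582 and 0.0541). In IgG against input its probes disagreed (log2 0.26, -0.16 and -0.71).

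Of the transcription factors, Zfp143, an activator found at many promoters, was at 678 and 647 in input, 253 and 236 in IgG, 276 and 266 in V5 and 312 and 305 in GFP. It was lower in the mock than in input (log2 -1.44) and higher than the mock with GFP (log2 0.34, adjusted p = 0.00474), with V5 at 0.15 (adjusted p = 0.109). Zfp335 was lower with both (-0.37 and -0.47), but with median scaling (-0.10 and -0.18) and spike-in scaling (-0.00093 and -0.00089) it was called with neither. Without both arrays of conflicting descriptions its V5 call ended as well (adjusted p = 0.0784). Zfp384 (-0.07 and 0.10, its other probes at -0.23 and -0.34 with GFP) and Zfp521 (0.17 and -0.07) did not pass with either. Zfp35, known from spermatocytes, was at 4411 and 4233 in input, 2036 and 1859 in IgG, 1670 and 1789 in V5 and 1457 and 1457 in GFP (log2 over IgG -0.17 with V5, adjusted p = 0.095, and -0.42 with GFP, adjusted p = 0.00276). With spike-in scaling its values over the mock were 0.20 and 0.056.

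For 3 further members of that list, Zfp451, Zfp148 and Zfp318, the probes of the gene disagreed as well. Zfp451, a ligase for the modifier SUMO, was called higher in the mock than in input by its brightest probe (log2 0.74), while its other 3 probes gave -0.46, -0.97 and -0.81. Against the mock 2 of its 4 probes gave 0.85 and 0.70 with GFP and the other 2 gave -0.24 and -0.27. Zfp148 was lower in the mock by its brightest probe (log2 -1.10), and its other 3 probes gave 0.34, 0.062 and 0.21. Zfp318 had -0.28 with GFP by its brightest probe and 0.23 and 0.11 by the others. No direction is given for these genes. Over all members called with more than 1 probe, a probe of opposite sign was found in 5 of 40 with V5, 14 of 58 with GFP, 12 of 62 in IgG against input and 2 of 13 in V5 against GFP.

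The corepressor genes with which KRAB zinc finger proteins work moved in both directions. Of 32 measured, 10 were higher and 6 lower with V5, and 15 higher and 8 lower with GFP. The shares of all genes were 16.7% higher and 40.3% lower with V5, and 21.6% and 52.1% with GFP. The medians of the 32 were 0.14 and 0.20 where all genes stood at -0.21 and -0.32. With spike-in scaling 22 were higher and 0 lower with V5, and 24 and 2 with GFP. The shares of all genes were then 35.7% and 5.16% with V5, and 39% and 12.5% with GFP. Trim28, the corepressor that binds the KRAB domain, was at 16365 and 17461 in IgG, 13617 and 13677 in V5 and 14624 and 15547 in GFP, lower with V5 (log2 -0.31, adjusted p = 0.0108, but 0.057 with spike-in scaling) and at -0.16 with GFP (adjusted p = 0.0651). Setdb1, the histone methyltransferase of this pathway, was lower with GFP (log2 -0.25, adjusted p = 0.0368, but 0.22 with spike-in and 0.043 with median scaling) and at -0.15 with V5 (adjusted p = 0.165).

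The higher corepressor genes included a heterochromatin protein, a histone deacetylase and SUMO. Cbx3, a reader of methylated histone H3, was at 9172 and 8292 in IgG, 20486 and 18896 in V5 and 26663 and 25211 in GFP (log2 1.17 and 1.57, adjusted p = 0.000754 and 8.22e-05). Sumo2 was at 30650 and 29726 in IgG, 67030 and 59021 in V5 and 87702 and 75417 in GFP (log2 1.06 and 1.43). Hdac2 was at 75.9 and 56.8 in IgG, 163 and 165 in V5 and 219 and 200.2 in GFP (log2 1.32 and 1.67). Both precipitates lay above every mock value in these 3 genes, and for Hdac2 all lay below the input (517 and 475).

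In other zinc finger families genes were called in both directions too, and no test compared the families. The shares of all genes were 16.7% higher and 40.3% lower with V5, and 21.6% and 52.1% with GFP. Of 24 genes named Zbtb on the array 10 were higher and 6 lower with V5, and 10 and 7 with GFP. Of 13 Zcchc genes, whose knuckle-like fingers bind RNA, 4 were higher and 1 lower with V5 and 7 and 2 with GFP. Of 15 Klf genes 3 were higher and 4 lower with V5 and 5 and 6 with GFP, of 18 Zdhhc genes, which encode palmitoyl transferases, 4 and 6 and then 5 and 7, and of 7 Zc3h genes 2 and 2 and then 2 and 4. The 1 Zscan and 1 Zkscan gene were called with neither antibody. With spike-in scaling the lower calls with V5 shrank to 0 of 24 Zbtb, 0 of 13 Zcchc and 1 of 15 Klf genes. They shrank to 0 of 18 Zdhhc and 0 of 7 Zc3h genes as well, where 5.16% of all genes were lower. The Zkscan gene was then called higher with both antibodies, as were 35.7% of all genes with V5 and 39% with GFP.

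**Figure D5:**
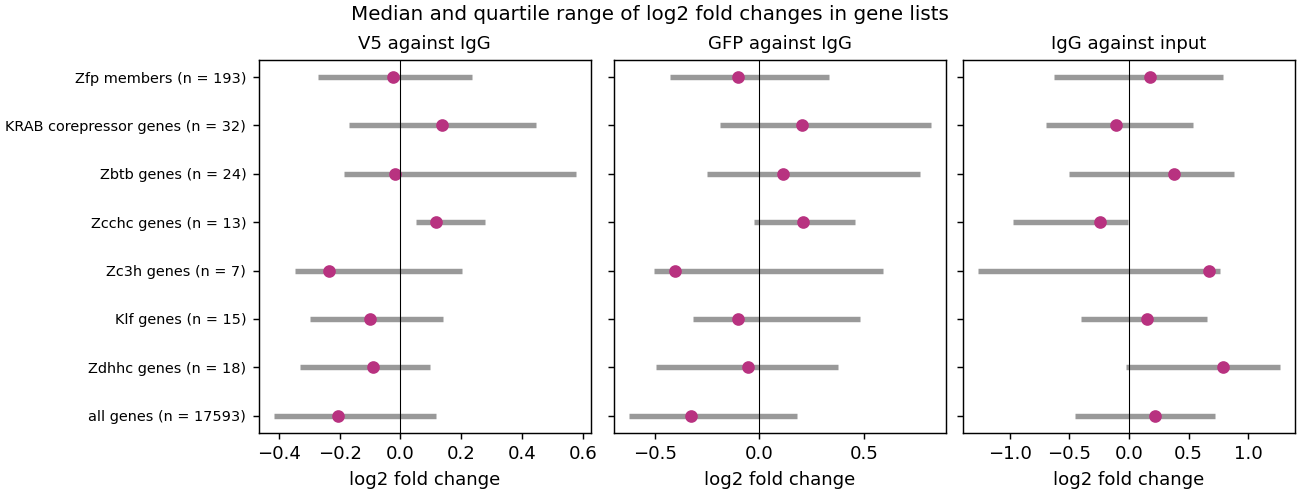
Median (dot) and quartile range (bar) of the log2 fold change in V5 against IgG, GFP against IgG and IgG against input, for the Zfp members, KRAB corepressor genes, 5 other zinc finger families and all 17593 genes tested. The Zfp median lies at -0.02 with V5 and -0.10 with GFP, where all genes lie at -0.21 and -0.32.

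Zfp genes lie in clusters in the genome, and chromosome 7 held 50 of the 186 members with a known chromosome. Of these 50, 7 (14%) were higher and 19 (38%) lower with V5, near the 16.7% and 40.3% of all genes. With GFP 9 (18%) and 31 (62%) were, against 21.6% and 52.1%, and in the mock 23 (46%) were higher and 14 (28%) lower than in input, near the 43.9% and 29.3% of all genes. With spike-in scaling these counts became 23 and 0, 20 and 1, and 9 and 30. The shares of all genes were then 35.7% and 5.16%, 39% and 12.5%, and 13.7% and 62.2%. There were 15 runs of at least 3 members whose neighbouring starts lay within 500 kb, a rule chosen with values known. In the run Zfp628, Zfp579, Zfp524 and Zfp580 on chromosome 7, 4 of 4 were higher in the mock than in input (median log2 1.29) and lower with GFP than in the mock (median -0.59). In the run Zfp553, Zfp688, Zfp689, Zfp629 and Zfp668, also on chromosome 7, 5 of 5 did the same (medians 1.06 and -0.58). Both comparisons use the same IgG arrays, and 43.9% of all genes were higher in the mock and 52.1% lower with GFP. With spike-in scaling 3 of 4 and 3 of 5 stayed higher in the mock than in input, and 0 were called with GFP. Zfp96, Zfp306, Zfp192 and Zfp184 on chromosome 13 were lower in the mock than in input in 4 of 4 cases (median -0.86), and 0 were called against the mock, where spike-in scaling called 4 higher with V5. Of the 15 runs, 3 had every member called higher in the mock than in input and 2 every member lower. The others of these 5 were Zfp41, Zfp623 and Zfp707 (3 of 3 higher, median 1.25) and Zfp397, Zfp35 and Zfp191 (3 of 3 lower, median -1.26). With spike-in scaling Zfp623 turned to -0.22 in the mock against input. Of the 10 members around Zfp112 and Zfp114 on chromosome 7, 2 were higher and 3 lower in the mock than in input. With V5 1 was higher and 2 lower, and with GFP 1 was higher and 7 lower, against 52.1% of all genes lower with GFP. With spike-in scaling Zfp108 (0.18), Zfp111 (0.11), Zfp61 (0.17) and Zfp93 (0.16) of these 7 turned sign with GFP and were not called.

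The limit of the set is narrow for dim genes. Just inside it, Zfp74 was between 30.1 and 42.4 on the 8 arrays and Zfp324 between 34 and 88.7. Just outside it, Zfp455 was above background on 7 arrays and Zfp125 and Zfp709 on 6. Zfp52, also above background on 6 arrays, was at 488 and 510 in input, 69.2 and 55.5 in IgG, 65.1 and 40.5 in V5 and 30.5 and 35.2 in GFP. Of the Zfp genes outside the set, 22 were tested because 1 group or more was above background, and in 18 of them (81.8%) that was input and no precipitate group. Among all 2150 tested genes that were not above background on all 8 arrays the share was 25.5% (548 genes). The rule on all 8 arrays thus left out Zfp transcripts that were seen in input and not well above background in the precipitates.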

How the data were processed

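The members, gene lists and tests were chosen with earlier results of these data known. Per the file headers, the deposited intensity values are background-subtracted processed signals of Agilent Feature Extraction 9.1.3.1, not scaled between arrays. Per the file's comment lines, the deposited table of group means was scaled to the median by the authors; it was not used.

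The log2 of each signal was taken and its array's 75th percentile over all non-control spots subtracted; outlier spots were left out. A probe was kept if any group had it well above background on both its arrays (17593 genes), and the probe with the highest mean stood for a gene, for members among probes above background on all 8 arrays (290 probes, 75 members with more than 1). The 8 arrays were fitted with 4 group means by limma 3.58.1 (R 4.3.3; lmFit and eBayes), with 4 degrees of freedom left for the residuals and 2.41 from the prior. Each adjusted p is from this two-sided limma test after Benjamini-Hochberg correction across the 17593 genes. The number of arrays, 2 a group, limits the precision. Simulated data tested the procedure.

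Named genes are called members without overlap between arrays, the 10 highest and 10 lowest against IgG and 5 each way otherwise, plus 20 members of a list of 27. Groups are those of the sample titles. Genes named outside this rule, and the runs of neighbours, were chosen after their values were seen. RefSeq accessions matched 22951 of 41174 probes, and other probes were matched by array name where a RefSeq symbol was the same. Grouping members by protein sequence was not run, since no protein table was used here.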

Additional observations from a re-analysis of the deposited data

How the results depend on the processing

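The 18 alternatives moved the counts as follows, and they moved those of all genes as well. Median scaling gave 84 members higher and 3 lower with V5 against IgG, and 82 and 30 with GFP. In V5 against GFP it gave 3 higher (1.55%), against 3.17% of all genes. Spike-in scaling (7 probes) gave 108 and 1, 105 and 8, 30 and 128 in IgG against input, and 1 and 22 in V5 against GFP. Of all calls in V5 against IgG 29.3% were upward, and 75.6%, 87.4% and 39.2% with median, spike-in and quantile scaling; in GFP against IgG 29.3%, 52.6%, 75.7% and 35.8%; in IgG against input 60% and, with spike-in scaling, 18%; in V5 against GFP 48.5%, with median scaling 31.5% and with spike-in scaling 10.7%. Normexp gave 0 and 0, 17 and 16, 55 and 32, and 0 and 0 (42 and 5 members at an unadjusted limma p under 0.05 where 0 were called), with relative medians of 0.11 for V5 and 0.12 for GFP. With only genes above background on all 8 arrays, 24 members (12.4%) were higher in V5 than in GFP, against 13.6% of those genes. No filter gave 0 and 0 there, a relative median of 0.096 in place of -0.02, and 0.13 for GFP against IgG. The members' own medians stayed at 0.069 and -0.10 with no filter, and those of all genes moved to -0.027 and -0.23. Using only the 4 arrays compared gave 0 and 0 in V5 against GFP. Without both arrays of conflicting descriptions V5 against IgG gave 9 and 2 and V5 against GFP 0 and 0 (29 at an unadjusted p under 0.05). Leaving out 1 array in turn gave 26 to 50 higher and 27 to 58 lower with V5, 46 to 55 and 63 to 74 with GFP, 82 to 87 and 58 to 66 in IgG against input and 0 to 0 each way in V5 against GFP, with relative medians of 0.14 to 0.25, 0.16 to 0.26, -0.10 to 0.0053 and -0.025 to -0.0099. Apart from the moved median of all genes with no filter, the cause was not tested for any of these.

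Whether replicate numbers pair the samples is not settled. Deviations of replicate 1 correlated between groups at -0.075 to 0.11, and 2 arrays a group cannot decide it. With the replicate number as a replicate block, V5 against GFP gave 1 member higher and 1 lower, and no other count moved by over 1.5 times.

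Signs turned for some named members. With median scaling V5 against IgG became 0.093 for Zfp35, 0.19 for Zfp36, 0.19 for Zfp148, 0.23 for Zfp318, 0.14 for Zfp346, 0.19 for Zfp384 and 0.019 for Zfp622; GFP against IgG 0.0095 for Zfp318, 0.19 for Zfp346, 0.020 for Zfp451, 0.22 for Zfp521 and 0.044 for Zfp598; and IgG against input 0.0054 for Zfp106. With spike-in scaling V5 against IgG became 0.20 for Zfp35, 0.29 for Zfp36, 0.29 for Zfp148, 0.33 for Zfp318, 0.24 for Zfp346, 0.29 for Zfp384, 0.094 for Zfp598 and 0.12 for Zfp622; GFP against IgG 0.056 for Zfp35, 0.19 for Zfp318, 0.37 for Zfp346, 0.20 for Zfp451, 0.40 for Zfp521, 0.23 for Zfp598 and 0.0075 for Zfp622; IgG against input -0.14 for Zfp36, -0.53 for Zfp91, -0.56 for Zfp161, -0.18 for Zfp238, -0.069 for Zfp346, -0.30 for Zfp384, -0.37 for Zfp410, -0.52 for Zfp423 and -0.050 for Zfp451; and V5 against GFP -0.058 for Zfp238 and -4.3e-05 for Zfp335. Quantile normalisation gave 0.017 for Zfp318 with V5 and 0.039 for Zfp521 with GFP, and normexp -0.028 for Zfp451 with V5 and -0.020 for Zfp148 with GFP. The mean of all kept probes of a gene gave 0.082 for Zfp148 and 0.081 for Zfp318 with V5, 0.019 for Zfp318, -0.16 for Zfp384 and 0.26 for Zfp451 with GFP, and -0.20 for Zfp91 and -0.38 for Zfp451 in IgG against input. Leaving out 1 array in turn, values of either sign came up for Zfp106 in IgG against input (-0.097 to 0.0061); for Zfp36 (-0.19 to 0.034), Zfp148 (-0.15 to 0.0017) and Zfp318 (-0.11 to 0.048) with V5; for Zfp36 (-0.020 to 0.20), Zfp148 (-0.044 to 0.10), Zfp384 (-0.0054 to 0.20) and Zfp521 (-0.14 to 0.0019) with GFP; and for Zfp238 (-0.079 to 0.18), Zfp281 (-0.24 to 0.043) and Zfp346 (-0.074 to 0.035) in V5 against GFP, where Zfp238 was also at -0.079 without both arrays of conflicting descriptions.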
